A study of Homo sapiens with 9 samples.

Results

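The NRF2 antioxidant program was examined in stable HEK293T lines that express wild-type (WT) p53 or 1 of 2 tumor hotspot mutants, G245S and R273H. It was represented by 10 genes, found by symbol among the 78986 genes of the count table: NFE2L2, which encodes NRF2, its inhibitor KEAP1, and the classic NRF2 targets GCLC, GCLM, SLC7A11, TXNRD1, SRXN1, NQO1, HMOX1 and ME1. All 10 were detected in every library and all 10 passed the filter on low counts in each comparison. HEK293T is a human embryonic kidney line carrying adenoviral E1A/E1B and the SV40 large T antigen, which binds and holds back the p53 of the cells themselves, so every line had that background beneath the added protein. The p53 proteins were delivered by lentivirus, and all 3 lines were kept in 1.5 µg/mL puromycin. Each line was 1 selected population, sequenced as 3 biological replicates with mRNA-based RNA-seq, so line and p53 form cannot be told apart. The 2 mutant lines were each compared with the WT line, and then with each other.

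NRF2 is a transcription factor that is continuously made and destroyed. KEAP1 binds NRF2 in the cytoplasm and, through the CUL3-RBX1 ubiquitin ligase, sends it to the proteasome. Oxidants and electrophiles modify cysteines of KEAP1, NRF2 then escapes, pairs with a small MAF protein in the nucleus, and binds antioxidant response elements beside genes for glutathione synthesis, the thioredoxin system, quinone and heme metabolism, and NADPH supply. NRF2 is therefore controlled largely as a protein, and the mRNA of its targets is a common readout of its activity. Mutant p53 has been tied to this program in tumor cells, which is the question these comparisons bear on.

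The antioxidant response element has a well-known core, TGACNNNGC, of which TGACTCAGC is 1 form. Matches to it are shown because target genes are thought to answer to NRF2 through elements of this kind. Whether the matches shown act in this way was not tested. The core was searched on both strands in the 1000 bases before each RefSeq start on GRCh38.p14, with the 9-letter form counted within the core. Of the 10 genes, 8 had a RefSeq start in the table used, and 6 of the 8 held the core, among 9697 of 27305 genes overall (35.5%). TGACTCAGC stood before NQO1 and ME1, among 467 of the 27305 genes (1.71%). No match was found before NFE2L2 or SRXN1, and HMOX1 and SLC7A11 were not searched. Each sequence below is GRCh38 on the strand that carries the core, 5′ to 3′, with the core in capitals.
NQO1: agtcacagTGACTCAGCagaatctg
ME1: tcctgccaTGACTCAGCgcttctcg
GCLM: gaagacaaTGACTAAGCagaaatcg
KEAP1, first site: ttttattgTGACACGGCgggcgccc
KEAP1, second site: ggtcaccaTGACTAAGCagagccgg
TXNRD1, first start: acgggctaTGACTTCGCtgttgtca
TXNRD1, second start: agtcagaaTGACAAAGCagaaatcc
GCLC: atatgtgtTGACAGAGCaatgacct
GPX2: ccccaggaTGACTTAGCaaaaacag
PTGR1: tcaggcctTGACCTGGCttctgcaa

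The NQO1 site lay at chr16:69726999-69727023 on the minus strand, with the far end of the core 455 bases before the start and outside any protein-coding gene of GENCODE v44. The ME1 site, 137 bases before its start at chr6:83431172-83431196 on the minus strand, was likewise outside coding genes. The GCLM site lay 34 bases before the start, at chr1:93909448-93909472 on the plus strand, and overlapped an annotated GCLM exon. Those of KEAP1 lay at chr19:10502809-10502833 on the minus strand and chr19:10502786-10502810 on the plus strand, both in an annotated KEAP1 exon, 54 and 31 bases before the later of its RefSeq starts. The TXNRD1 sites lay at chr12:104215672-104215696 on the plus strand, 99 bases before the first start, and at chr12:104286922-104286946 on the minus strand, inside a TXNRD1 exon and 102 bases before the second start. The GCLC match, at chr6:53545955-53545979 on the plus strand, was 870 bases before the start and within a GCLC intron. GPX2 and PTGR1, further NRF2 targets described with WT replicate 3, held the core 122 bases before the start, in a CHURC1 intron at chr14:64942851-64942875, and 921 bases before it, at chr9:111600336-111600360, both on the plus strand. AKR1C1 and AKR1C2, described there too, held no match. These are matches of letters, and binding of NRF2 was not measured.

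Total counts were 7325514 to 9667306 in 8 of the 9 libraries and 1486315 in WT replicate 3, which was left out of the main fits for its depth and enters only the alternatives named. WT therefore had n = 2 and each mutant n = 3. Levels are given as CPM, counts relative to library size on 1 TMM scale, and are compared between libraries of the same gene, never between genes. At a count of 0, a limit of 3 counts would allow 0.305 to 0.408 CPM in the 8 libraries and 2.09 CPM in WT replicate 3. Of 3 p53 response genes used to check the labels, PHLDA3 was at 28.1, 30.8 and 30.7 CPM in the WT libraries and at 5.52 to 7.81 CPM in the 6 mutant libraries, and MDM2 at 65.6 to 84.3 CPM against 41.8 to 47.1 CPM. These genes fell in G245S (edgeR adjusted p = 3.14e-06 and 0.000848) and in R273H (4.05e-06 and 0.000228). CDKN1A, at 14.9 to 19.5 CPM in WT and 7.31 to 14.2 CPM in the mutants, was not called in either (edgeR adjusted p = 0.206 and 0.685). The labels call the cells epithelial. In the 8 libraries KRT8 and KRT18 were at 9.62 to 12.1 and 58.6 to 68.6 CPM, EPCAM, KRT19 and CDH1 were at or under 3.40, 1.36 and 1.41 CPM, and the mesenchymal markers VIM and CDH2 were at 461 to 580 and 75.5 to 83.7 CPM. The kidney factors LHX1 and PAX2 were present at 5.27 to 9.94 and 2.18 to 4.86 CPM, PAX8 was at most 0.229 CPM, and the leukocyte and endothelial markers summed to at most 1.63 and 0.545 CPM.

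The 10 genes of the NRF2 program were expressed in all lines, and neither mutant moved any of them past the test. In G245S, 0 of the 10 genes passed an adjusted p of 0.05 (edgeR quasi-likelihood test, Benjamini-Hochberg over all genes tested), against 0.126% of the 15893 genes tested (3 higher and 17 lower). In R273H it was 0 of 10, against 0.137% of 16022 genes (4 higher and 18 lower). Between the mutants it was 0 of 10, against 0% of 15614 genes. At an unadjusted p under 0.05 the counts among the 10 genes were 0, 1 and 0, where all genes gave 1058, 979 and 741. DESeq2 called none of the 10 in any comparison. The background is so low that a count of 0 says little about these genes in particular, and the intervals say more: against WT, the 95% intervals of all 10 genes in both mutants lay between 0.614-fold (SLC7A11 in G245S) and 1.60-fold (GCLC in R273H). The median log2 fold change of the 10 genes was -0.05 in G245S and 0.06 in R273H, beside 0.00 for all genes in each.

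**Figure D1:**
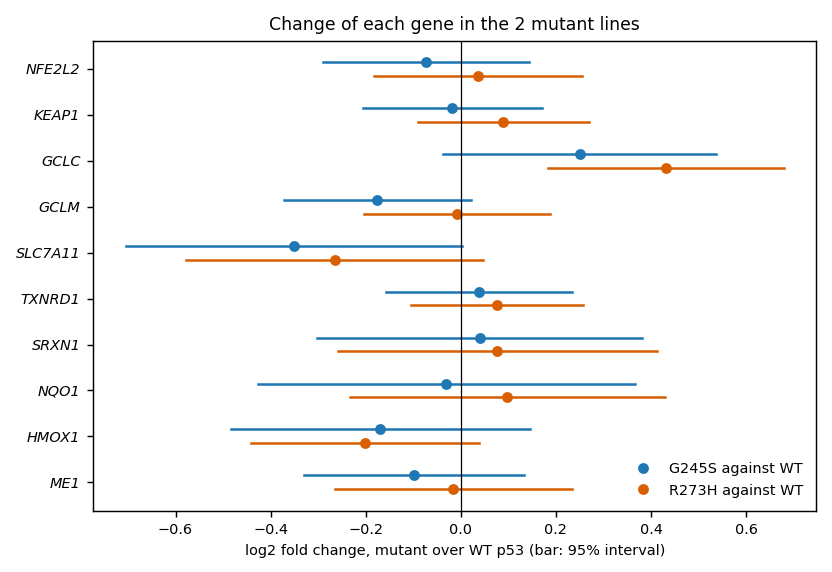
Log2 fold change of each of the 10 genes in G245S (blue) and R273H (orange) against WT p53, with 95% intervals from edgeR (n = 3 against 2). In 19 of the 20 estimates the interval spans 0, and the exception is GCLC in R273H at 0.43. The 2 mutants share the WT libraries.

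NFE2L2 mRNA differed from WT by less than its standard error in both mutants. NFE2L2 (ENSG00000116044, chr2:177218667-177392756, minus strand) was at 51.4 and 46.3 CPM in WT replicates 1 and 2. It was at 49.1, 41.9 and 47.6 CPM in G245S and at 51.2, 44.5 and 54.2 CPM in R273H. The 3 groups overlapped. Its log2 fold change was -0.07 ± 0.10 (SE) in G245S and 0.04 ± 0.10 in R273H. Between the mutants it was 0.11 ± 0.09 higher in R273H on the log2 scale (edgeR adjusted p = 0.994).

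KEAP1, the sensor that holds NRF2 back, had the smallest spread of the 10 genes. KEAP1 (ENSG00000079999, chr19:10486125-10503558, minus strand) was at 80.9 and 79.2 CPM in WT, at 76.0, 83.2 and 77.01 CPM in G245S, and at 86.3, 83.6 and 85.3 CPM in R273H. R273H lay above both WT libraries and all 3 G245S libraries, by a log2 fold change of 0.09 ± 0.08 against WT (adjusted p = 0.971 with edgeR) and 0.11 ± 0.07 against G245S (adjusted p = 0.994), neither past the test. Over the 8 libraries the highest KEAP1 value was 1.14 times the lowest, where the median over the 16277 genes tested in any comparison was 1.39 times. For the 10 genes that ratio ran up to 1.57, in HMOX1.

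Genes of glutathione synthesis gave the largest differences, and in opposite directions. GCLC (ENSG00000001084, chr6:53497341-53616970, minus strand) encodes the catalytic subunit of glutamate-cysteine ligase, the rate-limiting enzyme of the pathway. It was at 16.8 and 15.5 CPM in WT, at 21.5, 18.1 and 17.5 CPM in G245S, and at 21.6, 21.8 and 22.03 CPM in R273H. Every mutant library was above both WT libraries, and R273H also lay just above G245S. The log2 fold change was 0.43 ± 0.12 in R273H, or 1.35-fold (95% interval 1.14 to 1.60), with an unadjusted p of 0.00211 and an adjusted p of 0.367 in edgeR. In G245S it was 0.25 ± 0.13 (adjusted p = 0.784). Over 16 alternative fits the R273H value stayed between 0.37 and 0.50, and the adjusted p between 0.309 and 1.

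GCLM (ENSG00000023909, chr1:93885199-93909456, minus strand), the regulatory subunit of the same enzyme, did not follow GCLC. It was at 54.8 and 60.7 CPM in WT, at 52.6, 50.9 and 48.8 CPM in G245S, and at 60.0, 57.5 and 54.2 CPM in R273H. The G245S libraries were the lowest 3 and overlapped neither WT nor R273H, while R273H overlapped WT. Against WT, edgeR put GCLM at -0.18 ± 0.09 on the log2 scale in G245S (adjusted p = 0.776) and at -0.01 ± 0.09 in R273H. Between the mutants GCLM was 0.17 ± 0.08 higher in R273H on the log2 scale (adjusted p = 0.994 with edgeR).

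SLC7A11 (ENSG00000151012, chr4:138164097-138242349, minus strand) encodes the cystine transporter xCT, which supplies cysteine for glutathione and is repressed by WT p53 in other cells. Here it was at 10.4 and 10.5 CPM in WT, at 7.51, 7.45 and 9.57 CPM in G245S, and at 8.95, 8.44 and 8.65 CPM in R273H. All 6 mutant libraries were below both WT libraries. By edgeR the difference from WT was -0.35 ± 0.16 on the log2 scale for G245S (adjusted p = 0.751) and -0.26 ± 0.15 for R273H (adjusted p = 0.914). Counts were 58 to 91 per library, among the lowest of the 10 genes.

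**Figure D2:**
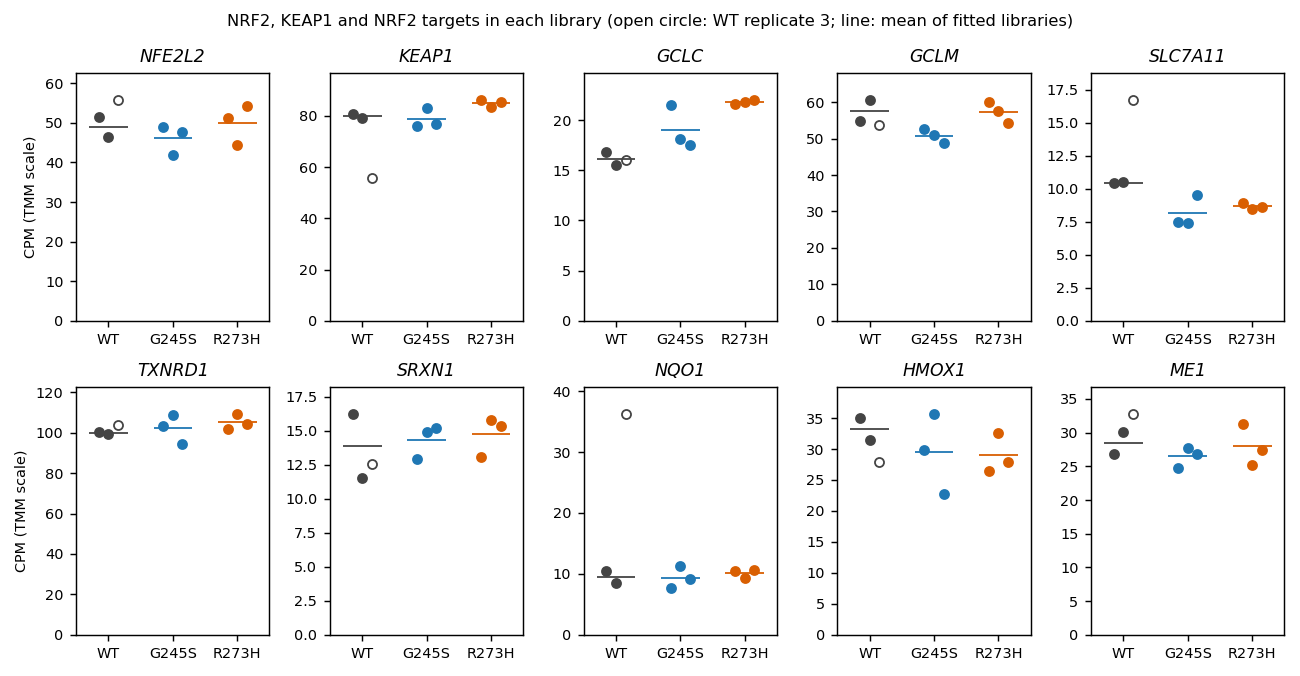
CPM of the 10 genes in each library, with 1 panel per gene and axes from 0. Filled circles are the libraries fitted, lines are their group means (n = 2 for WT, 3 for each mutant), and open circles are WT replicate 3. GCLC is higher and SLC7A11 lower in all mutant libraries than in the filled WT libraries, and NQO1 at 36.3 CPM in WT replicate 3 stands far from the other 8.

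The thioredoxin genes differed between lines by no more than their errors. TXNRD1 (ENSG00000198431, chr12:104215779-104350307, plus strand), cytosolic thioredoxin reductase, was at 100.3 and 99.4 CPM in WT, at 103, 109 and 94.4 CPM in G245S, and at 102, 109 and 104 CPM in R273H. Its log2 fold changes were 0.04 ± 0.09 and 0.08 ± 0.08. SRXN1 (ENSG00000271303, chr20:646615-653200, minus strand), which reactivates over-oxidized peroxiredoxins, was at 16.3 and 11.5 CPM in WT, which as a ratio was the widest gap between those 2 libraries among the 10 genes. The 6 mutant libraries lay between those 2 values, at 12.9 to 15.8 CPM, and the log2 fold changes were 0.04 ± 0.16 and 0.08 ± 0.16.

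NQO1 (ENSG00000181019, chr16:69706996-69726668, minus strand), the quinone reductase most used to report NRF2 activity, had 67 to 91 counts in each of the 8 libraries fitted. NQO1 was at 10.4 and 8.57 CPM in WT, at 7.62, 11.3 and 9.20 CPM in G245S, and at 10.4, 9.39 and 10.7 CPM in R273H. The groups overlapped, with log2 fold changes of -0.03 ± 0.18 in G245S and 0.10 ± 0.15 in R273H. HMOX1 (ENSG00000100292, chr22:35380361-35394214, plus strand), heme oxygenase 1, which both NRF2 and the repressor BACH1 control, was at 34.9 and 31.5 CPM in WT, at 29.9, 35.7 and 22.8 CPM in G245S, and at 26.4, 32.5 and 28.0 CPM in R273H. HMOX1 overlapped between the groups and varied most, with log2 fold changes of -0.17 ± 0.15 and -0.20 ± 0.11. ME1 (ENSG00000065833, chr6:83210402-83431051, minus strand), the cytosolic malic enzyme that makes NADPH, was at 26.8 and 30.1 CPM in WT and at 24.8 to 31.2 CPM in the 6 mutant libraries, with log2 fold changes of -0.10 ± 0.11 and -0.02 ± 0.12.

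Separation of the groups was itself common. In G245S, 3 of the 10 genes did not overlap WT (GCLC higher, GCLM and SLC7A11 lower), where 22.1% of all genes tested did not. In R273H it was 4 of 10 (GCLC, KEAP1 and TXNRD1 higher, SLC7A11 lower), where 20.7% of all genes did not. With WT replicate 3 counted, TXNRD1 (104 CPM there) overlapped between R273H and WT, and GCLC, KEAP1 and SLC7A11 still did not. Between the mutants it was 3 of 10 (GCLC, GCLM and KEAP1, each higher in R273H), where 9.01% of all genes did not. In that last comparison 9 of the 10 genes had a positive log2 fold change, between 0.04 and 0.18, and HMOX1 was at -0.03, while 7543 of all 15614 genes were positive. The median of the 10 was 0.10, beside 0.00 for all genes. The lean was not particular to the 10 genes. Of the wider lists described next, 15 of 19 other antioxidant enzymes and 13 of 20 further NRF2 targets were positive. Of the NRF2 regulators 6 of 13 were.

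Genes around the program were also not called. Of 14 NRF2 regulators (CUL3 and RBX1 of the ligase, the small MAF partners, BACH1 and others) 13 were tested, of 30 further NRF2 targets 20, and of 19 other antioxidant enzymes 19. The targets not tested were low, with a highest value among them of 1.03 CPM (ABCC2) in the 8 libraries fitted. None of the genes tested in these lists passed the edgeR test at an adjusted p of 0.05 in any comparison. DESeq2 called none of the regulators and targets. At an unadjusted p under 0.05 there were 2 regulators, 4 targets and 2 enzymes in G245S, then 1, 3 and 1 in R273H, and 0 between the mutants, where all genes gave 1058 of 15893, 979 of 16022 and 741 of 15614. Median log2 fold changes of the 3 lists were 0.04, -0.05 and -0.06 in G245S and 0.03, 0.03 and -0.04 in R273H. Negative values in G245S were 5 of 13, 12 of 20 and 16 of 19, where all genes gave 7820 of 15893. In R273H they were 6 of 13, 9 of 20 and 11 of 19, where all genes gave 7903 of 16022.

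The most displaced of these genes with a mean of at least 5 CPM were as follows. EPHX1, a microsomal epoxide hydrolase, was second highest in both mutants. EPHX1 was at 43.2 and 39.4 CPM in WT and at 47.3 to 52.0 CPM in the 6 mutant libraries, a log2 difference of 0.29 ± 0.09 for G245S (edgeR adjusted p = 0.586) and of 0.21 ± 0.09 for R273H (0.785). MAFK, a small MAF partner of NRF2, was at 12.6 and 12.4 CPM in WT and at 17.1, 14.6 and 15.6 CPM in G245S, with a log2 fold change of 0.35 ± 0.13 (edgeR adjusted p = 0.684). MAFG, another small MAF, was 0.24 ± 0.12 higher in R273H on the log2 scale.

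BACH1, which competes with NRF2 for the same elements, was lowest of the regulators in both mutants. It was at 16.0 and 15.5 CPM in WT and at 11.04 to 14.01 CPM in all 6 mutant libraries, a log2 difference of -0.31 ± 0.14 for G245S and -0.33 ± 0.13 for R273H (edgeR adjusted p = 0.733 and 0.769). WT replicate 3, at 13.96 CPM, lay within the mutant range. MSRA, a methionine sulfoxide reductase, was at 6.76 and 6.65 CPM in WT and 5.38, 6.16 and 4.54 CPM in G245S. Its log2 difference was -0.32 ± 0.20 (edgeR adjusted p = 0.801), and WT replicate 3, at 3.49 CPM (5 counts), was below every G245S library. In R273H the lowest were PIR, an iron-binding protein, at -0.38 ± 0.15, and TXN, thioredoxin, at -0.34 ± 0.12 on the log2 scale (edgeR adjusted p = 0.764 and 0.685). TXN was at 592 and 460 CPM in WT and at 366, 433 and 449 CPM in R273H. The gap between the WT libraries was wider than the one between the means of WT (526 CPM) and R273H (416 CPM).

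**Figure D3:**
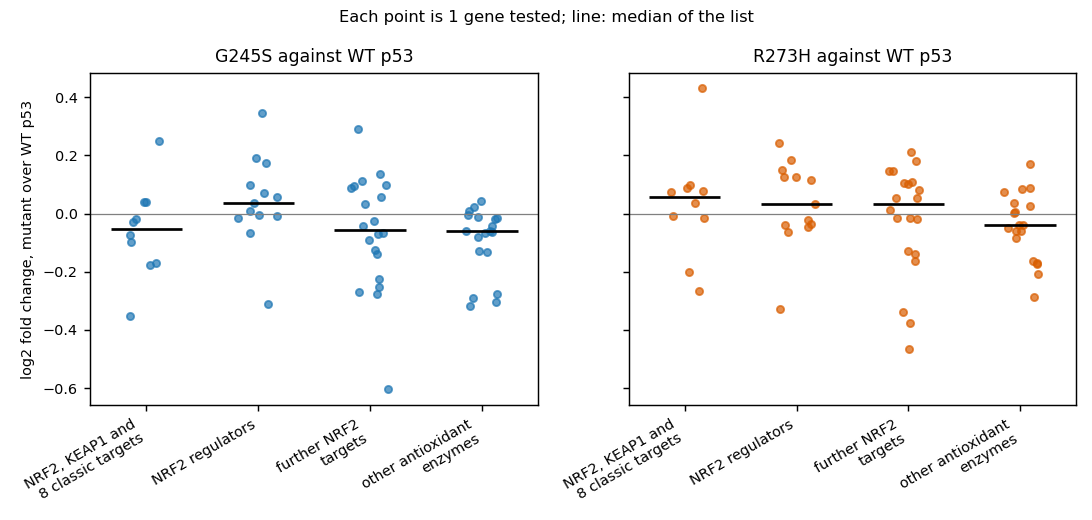
Log2 fold change of every gene tested in 4 lists, for G245S (left) and R273H (right) against WT p53. Each point is 1 gene and each line is the median of its list, all of which lie between -0.06 and 0.06. No point passed an adjusted p of 0.05.

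WT replicate 3 carried a different pattern of NRF2 targets. It also held counts of 18 genes, GPX2 among them, that the other 8 libraries nearly lacked, described under Other observations. NQO1 had 52 counts there, or 36.3 CPM, with an exact 95% Poisson interval of 27.1 to 47.6 CPM that covers counting error only. The other 8 libraries held NQO1 at 7.62 to 11.3 CPM, so this library was 3.74 times their mean. SLC7A11 was also above all other libraries, at 16.8 CPM (24 counts, interval 10.7 to 24.9), and KEAP1 was below them, at 55.8 CPM (80 counts, 44.3 to 69.5). For the other 7 of the 10 genes, including GCLM at 53.7 CPM, TXNRD1 at 104 CPM and HMOX1 at 27.9 CPM, the interval took in values of the other libraries. By the same rule, 4.58% of the 16277 genes tested were above and 4.26% below the other 8 libraries. Over the 38171 genes with a count in any library, 2.58% were above.

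Among the 30 further targets, 6 were above the other 8 libraries in WT replicate 3 and 2 were below. GPX2, the gastrointestinal glutathione peroxidase, had 18 counts in WT replicate 3 and 0 in each of the other 8. AKR1C1, an aldo-keto reductase, had 18 counts there, or 12.6 CPM, against at most 0.736 CPM elsewhere. AKR1C2 had 14 counts, or 9.77 CPM, against at most 0.817 CPM. Those 2 genes are near-identical in sequence and multi-mapped reads were split between features, so their shares of the counts are uncertain. PTGR1, prostaglandin reductase 1, had 22 counts, or 15.4 CPM, against at most 0.829 CPM. None of these 4 passed the default filter on low counts in the 8 libraries. FTL and BLVRB were also above, at 577 and 62.1 CPM, and PRDX1 and FTH1 were below, at 854 and 499 CPM. Of the 14 regulators, CUL3 and RBX1, the ligase partners of KEAP1, were below the other 8 and none was above. Of the other antioxidant enzymes PRDX4 was above, and SOD2 and TXNRD2 were below.

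**Figure D4:**
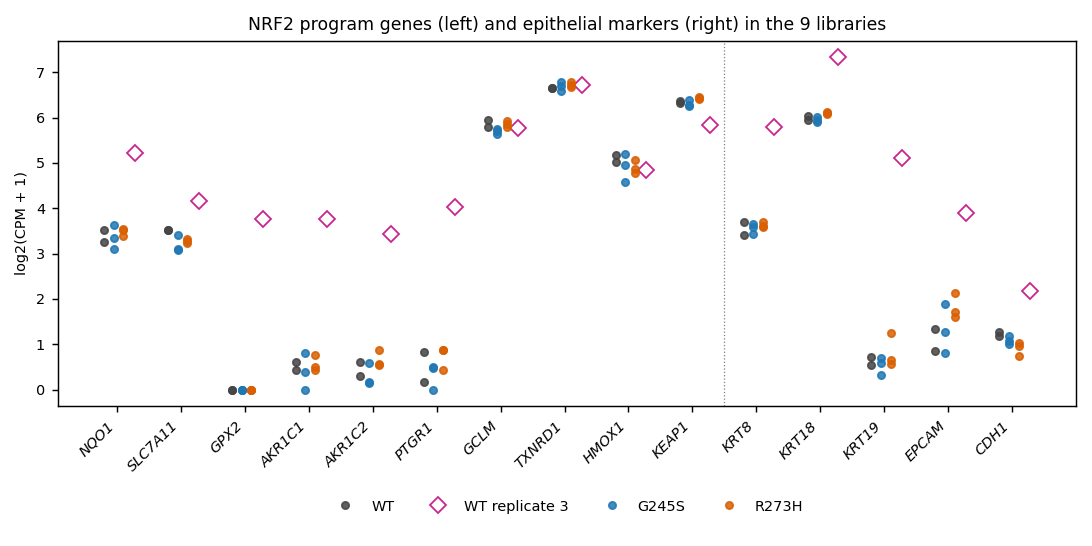
Log2(CPM + 1) of NRF2 program genes and of 5 epithelial markers in the 9 libraries, with WT replicate 3 as open diamonds. NQO1, SLC7A11, GPX2, AKR1C1, AKR1C2 and PTGR1 are higher in that library than in the other 8, as are KRT8, KRT18, KRT19 and EPCAM, while GCLM, TXNRD1 and HMOX1 are not.

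Epithelial markers moved with NQO1 in the same library. Of the 5 markers 4 were above the other 8 libraries and CDH1 was not: KRT19 was at 33.5 CPM, KRT8 at 54.4 CPM, KRT18 at 160 CPM and EPCAM at 13.96 CPM. The 5 summed to 265 CPM in WT replicate 3 and to 73.2 to 84.3 CPM in the others, with 73.2 to 80.0 in WT, 73.5 to 77.1 in G245S and 82.9 to 84.3 in R273H. Kidney, mesenchymal, leukocyte and endothelial markers had 0 genes above. The leukocyte and endothelial markers had at most 1 count each there, so a rule that needs over 3 counts could not place them above. CTSG and AZU1, proteins of neutrophil granules outside these lists, had 26 and 21 counts in WT replicate 3. The 3 p53 response genes (PHLDA3, MDM2 and CDKN1A) had Poisson intervals that reached the range of the other libraries, although CDKN1A, at 19.5 CPM, was above their highest value of 18.4 CPM. They summed to 116 CPM, beside 122 to 134 CPM in the other WT libraries and 59.6 to 66.0 CPM in the mutants. The mitochondrial share of counts was 7.02% in WT replicate 3, inside the 4.47 to 8.34% of the others. The part of the epithelial markers, of depth and of the reads described under Other observations in the NQO1 value was not tested.

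The choice of WT libraries moved the NQO1 and SLC7A11 comparisons. With all 3 WT libraries, the log2 fold change of NQO1 was -0.50 ± 0.38 in G245S (edgeR adjusted p = 0.860) in place of -0.03, and -0.36 ± 0.36 in R273H (adjusted p = 0.964) in place of 0.10, a change of sign. Over all 16 alternatives NQO1 ran from -0.90 to 0.13 in G245S and from -0.76 to 0.25 in R273H, with adjusted p from 0.656 to 1 and from 0.699 to 1. SLC7A11 kept its sign in all 16, at -0.56 to -0.29 in G245S and -0.47 to -0.24 in R273H, and at -0.47 and -0.38 with all 3 WT libraries. The -0.56 in G245S came from the fit with WT replicates 2 and 3, and SLC7A11 in WT replicate 3 was above all other libraries. KEAP1 in G245S was -0.02 without WT replicate 3 and 0.07 with it. GCLC was at 16.1 CPM in WT replicate 3, between the other WT libraries and below all 6 mutant libraries. That value rests on 23 counts, and its Poisson interval of 10.2 to 24.1 CPM took in all 6 mutant values as well.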

How the data were processed

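RNA-seq of 9 libraries, 3 per line, was analysed. The authors deposited expected counts per gene, which need not be whole because multi-mapped reads were split. Per the labels and the study's methods, reads were filtered with fastp 0.24.0, aligned with STAR 2.7.11 to GRCh38, collapsed by molecular identifier, and counted strand-specifically with featureCounts (Subread 2.1.1) over exons and 3′ UTRs. The 9 columns of normalized values were not used. Counts were rounded to whole numbers.

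The main fits did not use WT replicate 3, whose sum of counts was less than 0.5 times the median total over its 8 fellow libraries. The study also left out 1 WT library, without naming which, and gave low reads and poor sample quality as its reasons. Each pair of lines was fitted in edgeR 4.0.16 (R 4.3.3) with filterByExpr defaults, TMM scaling and the quasi-likelihood test. The p-values were adjusted by Benjamini-Hochberg over all genes tested, with a threshold of 0.05. Standard errors and 95% intervals came from the same fit. Alternatives varied the WT libraries, scaling, filter, replicate term and tool (DESeq2 1.42.0), and the fit was tested on simulated data. The p-values measure the spread between these replicates.

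WT replicate 3 was described by the exact Poisson interval of its counts. A gene was above or below when the whole interval lay outside the range of the other 8 libraries and, for above, the count was over 3. This rule was chosen after its NQO1 count was seen.

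The 10 genes and the wider lists were chosen with earlier results of these data known. Of the wider lists the text names any gene past the threshold (there was none) and, per mutant against WT, the 2 highest and 2 lowest log2 fold changes among genes with a mean of at least 5 CPM. Genes named for WT replicate 3 are those outside the range of the other libraries. TRIM16L has more than 1 gene model in the table, and the pseudogene model was used. Promoter sequence came from RefSeq and GRCh38, and all 35116 RefSeq promoter sequences matched that genome. Figures were drawn with matplotlib.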

Additional observations from a re-analysis of the deposited data

Results flagged for a closer look

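These values are from WT replicate 3, which enters none of the main comparisons, for genes of the NRF2 lists whose whole 95% Poisson interval lay above all 8 other libraries, WT replicates 1 and 2 included. NQO1 was at 36.3 CPM and SLC7A11 at 16.8 CPM. PTGR1 was at 15.4 CPM, GPX2 and AKR1C1 were both at 12.6 CPM, and AKR1C2 was at 9.77 CPM. FTL (577 CPM), BLVRB (62.1 CPM) and PRDX4 (694 CPM) were 1.36, 1.44 and 1.53 times the mean of the other libraries. This library had 1486315 counts in all, so 1 count is worth more there than elsewhere. A cause was not tested.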

How the results depend on the processing

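None of the 10 genes was called in any of the 16, 16 and 14 alternatives of the 3 comparisons (160, 160 and 140 values), and none of the wider NRF2 regulators and targets was called either. The sign of a gene's log2 fold change turned in 12, 20 and 7 of those values, each not past the test. Counts over all genes did move, and the cause was not tested. In G245S against WT the count of 20 became 10 with all 3 WT libraries, 3 with WT replicates 1 and 3, and 144 with no filter, and 10 to 30 when 1 library was left out. In R273H against WT the count of 22 became 4 with WT replicates 1 and 3, 13 with WT replicates 2 and 3, and 93 with no filter, and 16 to 29 when 1 library was left out. Between the mutants the count of 0 became 1 with DESeq2 and 125 with no filter, and 0 to 3 when 1 library was left out. With the replicate number as a replicate block the counts were 76, 47 and 59, and 0 of the 10 genes in each. Libraries with the same number correlated at -0.132 to 0.26 in their deviations, not above 0.1 in every pair, so the numbers were not taken to pair the samples. The planned filter at 1 CPM kept more genes than the default, so a filter at a mean of 5 CPM was added after seeing the data and also called none of the 10. With 2 WT libraries, changes inside the intervals given are not excluded, and the ends of the intervals are not limits of detection. A larger change could also go uncalled. CDKN1A in G245S against WT, at 0.5765-fold (interval 0.4433 to 0.7498), was not called (edgeR adjusted p = 0.206). A WT library left out leaves 1, which is then assumed to vary like the mutant libraries.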

Other observations

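GPX2 was not alone in WT replicate 3. By a rule chosen after the values were seen, 18 genes had at least 15 counts there and less than 0.6 CPM in each of the other 8 libraries. The same rule applied to each of the other 8 libraries, WT replicate 3 set aside, gave 0 genes in each. The highest was KLK2, a prostate kallikrein, with 64 counts, and KLK3, which encodes prostate-specific antigen, had 25 counts against 0 in all of the others. ACP3, prostatic acid phosphatase, had 29 counts. TFF1, a trefoil peptide of the stomach, had 39 counts, and CLCA1, REG4 and CEACAM6, genes of intestinal epithelium, had 23, 15 and 21. PRSS2 and SPINK1, a pancreatic trypsinogen and the pancreatic trypsin inhibitor, had 27 and 31. CTSG and AZU1, proteins of neutrophil granules, had 26 and 21. SERPIND1, a liver protein, had 50 counts and 0 elsewhere. Where these reads came from, and their part in the NQO1, SLC7A11, GPX2, AKR1C1, AKR1C2 and PTGR1 values of that library, was not tested.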
